A study of Mus musculus with 2 samples.

Results

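Socs3 and 9 other genes of gp130 cytokine signalling are described here, gp130 being the protein of Il6st. They are the receptor chains Il6st, Il6ra, Lifr and Osmr, the kinases Jak1 and Jak2, the transcription factor Stat3, and the inhibitors Socs1, Socs2 and Socs3. They were picked by symbol, and these 10 are among 32285 genes in the deposited tables. The 10 were proposed with the levels of these same libraries, by cell class and by genotype, already known. Every level and ratio of theirs is therefore a description and not a test.

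The study compared a Fam69c knockout (KO) with a Fam69c wild type (WT) in cortical tissue. All mice were male and 4 months old, and their cortices were pooled within each genotype, dissociated enzymatically, stained with 7-AAD, a dye that enters dead cells, and passed through a cell sorter. The labels name 7 mice and do not say if each genotype had that many, nor do they give the strain or the knockout allele. Each genotype gave 1 library of single cells made with the 10x Genomics 3′ chemistry, so genotype and pool cannot be told apart and no test was possible. All intervals below are exact 95% intervals for counting error, and they leave out the spread between cells and between mice.

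The KO library held 9182 barcodes and 75473717 UMIs (unique molecular identifiers, each marking 1 captured transcript), and the WT library 7150 barcodes and 57166105 UMIs. After filtering, 7032 KO cells and 4940 WT cells were kept, with 8438.5 UMIs per KO cell and 8570 per WT cell in the median. Each cell was assigned to a class by its own marker genes, and classes are called by that gate ("microglia-gated"). The gate left 4.11% of KO cells and 15.2% of WT cells without a class. Only 1 KO cell and 2 WT cells passed the gate for neurons, while the neuroblast gate also took cells of cluster 21, which is led by neuronal genes such as Meg3, Adarb2 and Gad1 and held 26.7% of the neuroblast-gated KO cells and 20.8% of the WT ones. The erythroid gate took 56 KO cells with a median of 17705 UMIs and 266 WT cells with a median of 1221 UMIs. By clustering, 121 erythroid-gated cells lay in a cluster named erythroid and 108 in clusters named astrocyte. Values of this class therefore compare cells of unlike depth and mixed kind. The libraries shared 10 barcodes among their kept cells. Fam69c is listed as Dipk1c, and its level in astrocyte-gated cells was 33.8 CPM (UMIs scaled to 1000000 UMIs of the class) in the KO library and 59.6 CPM in the WT library. That is a log2 ratio of -0.82 (-0.93 to -0.71). Without knowing which exons the knockout removes, 3′ end counts do not show whether the intact transcript was lost.

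Cytokines of the interleukin 6 family signal through a receptor chain such as Il6ra, Lifr or Osmr together with the shared chain gp130. Jak kinases bound to the receptor tails then phosphorylate Stat3, which enters the nucleus and switches on its target genes. Socs3 is 1 of those targets and closes the loop, since its protein docks on gp130 and blocks the attached Jak kinases. In brain, the pathway is known for its role in the reaction of astrocytes and microglia to injury and inflammation.

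The promoter of Socs3 is shown because Socs3 carries the main difference described below and because Stat proteins are known to bind the palindrome TTCNNNGAA. In RefSeq promoters of build GRCm38.p6, covering 250 bases before to 50 after each gene's start, this motif reads the same on both strands and was found in 2582 of 27025 genes (9.55%). Of the 10 genes, 9 had a promoter entry and 1, Socs3, held the motif, 154 to 146 bases before the start. The start is that of RefSeq. The Socs3 and Osmr windows lie inside the GENCODE gene spans given below, so their start is not the outermost base of those spans. Among 18 known Stat3 target genes, 15 had an entry and 4 (Bcl6, Gfap, Icam1 and Fgl2) held it. The 3 sequences below run 5′ to 3′ on the gene's strand with the motif in capitals. They are Socs3 at chr11:117969317-117969616 on the minus strand, the adhesion molecule Icam1 at chr9:21015690-21015989 on the plus strand as a target gene with the motif, and the receptor Osmr at chr15:6874264-6874563 on the minus strand as a gene without it.
Socs3: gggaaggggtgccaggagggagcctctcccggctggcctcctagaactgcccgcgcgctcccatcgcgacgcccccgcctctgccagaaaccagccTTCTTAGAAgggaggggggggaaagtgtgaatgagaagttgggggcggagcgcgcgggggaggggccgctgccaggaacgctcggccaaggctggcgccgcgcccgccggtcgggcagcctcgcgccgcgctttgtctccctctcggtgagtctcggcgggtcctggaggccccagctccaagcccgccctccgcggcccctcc
Icam1: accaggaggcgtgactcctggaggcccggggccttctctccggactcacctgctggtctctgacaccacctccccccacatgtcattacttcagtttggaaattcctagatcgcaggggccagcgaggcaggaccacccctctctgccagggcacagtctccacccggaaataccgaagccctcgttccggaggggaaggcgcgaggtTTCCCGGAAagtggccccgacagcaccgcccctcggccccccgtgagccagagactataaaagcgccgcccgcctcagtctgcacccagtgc
Osmr: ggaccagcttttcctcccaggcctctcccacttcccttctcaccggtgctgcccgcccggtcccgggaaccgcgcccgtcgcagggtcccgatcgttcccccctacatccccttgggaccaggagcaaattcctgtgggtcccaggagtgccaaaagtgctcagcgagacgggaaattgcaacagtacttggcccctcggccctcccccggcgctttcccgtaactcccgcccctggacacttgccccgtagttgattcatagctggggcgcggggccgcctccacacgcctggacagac
A match is a string of letters and shows no binding, and the absence of a match concerns this window alone.

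Among the 10 genes, Socs3 in microglia-gated cells showed a difference between the libraries with many counts behind it, at 525 CPM in the KO library and 188 CPM in the WT library. Stat3 was also higher there, at 113 CPM in the KO library and 84.7 CPM in the WT library, while the receptor chain Il6st was lower, at 113 CPM in the KO library and 162 CPM in the WT library. Endothelial-gated cells of the KO library had more Il6ra and Osmr and less Lifr than those of the WT library. The Il6ra and Lifr differences were smaller when cells were brought to equal depth, as given below. Jak1 differed little in any class compared, and Jak2 was lower in oligodendrocyte-gated cells of the KO library.

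Of the 19 gates, 10 held at least 50 cells in each library and were compared. A gene was counted as measured in a class when it had at least 50 UMIs there over both libraries, and as past the fold when the libraries differed at least 1.5-fold. In microglia-gated cells, 1 of 7 measured members was past it upward, against 6.05% of all measured genes, and 1 of 7 downward, against 6.93%. In endothelial-gated cells, 3 of 9 were past it upward (5.94% of all genes) and 1 downward (7.13%). In astrocyte-gated cells, 1 of 9 was past it upward (2.97%) and 1 downward (8.96%). Oligodendrocyte-gated cells had 0 of 5 upward (2.84%) and 1 downward (5.41%). Fibroblast or meningeal-gated cells had 2 of 5 upward (6.68%) and 0 downward (10.9%), T cell-gated cells 2 of 6 upward (5.62%) and 0 downward (12.2%), and B cell-gated cells 1 of 3 upward (5.46%) and 1 downward (17.9%). No measured member was past it in neuroblast-gated cells (4 measured, with 2.17% of all genes upward and 8.44% downward), cycling progenitor-gated cells (3 measured, 3.43% and 11.7%) or erythroid-gated cells (2 measured, 11.3% and 12.4%). Since the members were chosen from this contrast, these shares are set side by side and nothing is read from them.

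**Figure D1:**
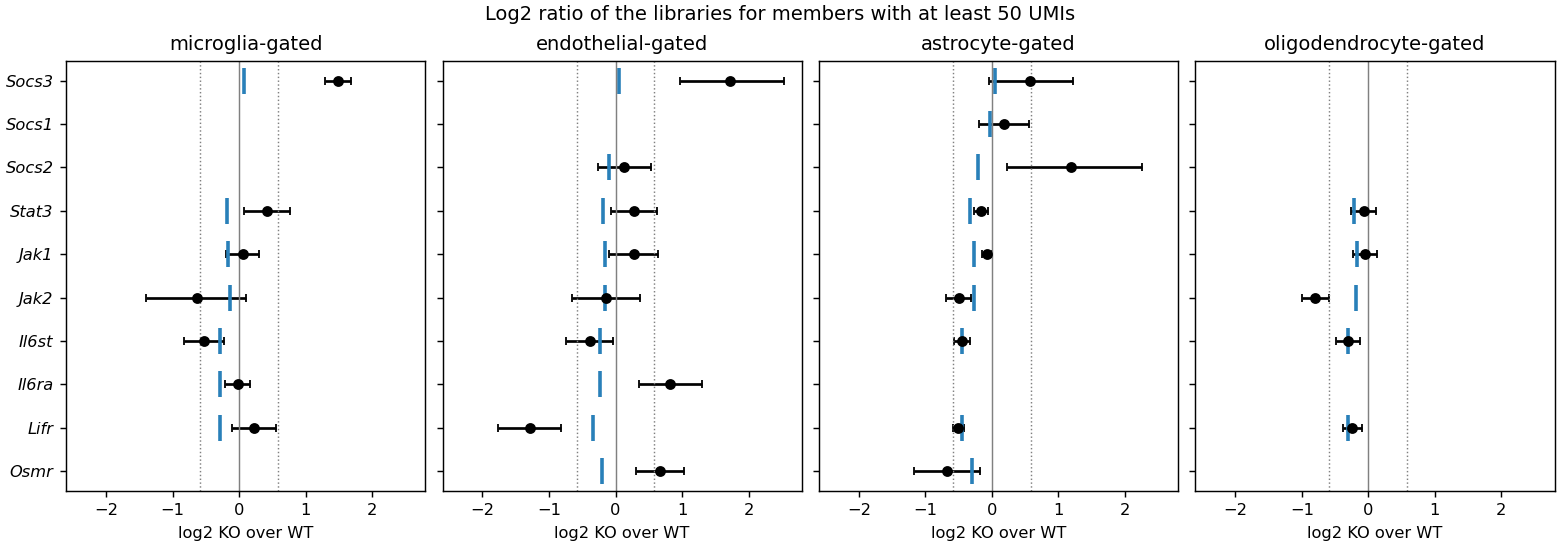
Log2 ratio of the KO over the WT library for the 10 genes (rows) in 4 marker-gated classes, for genes with at least 50 UMIs. Points are ratios, bars exact 95% intervals for counting error, dotted lines the 1.5-fold limits and blue ticks the median of genes of like transcript length; Socs3 in microglia-gated cells lies at 1.48 and Lifr in endothelial-gated cells at -1.28.

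The libraries also differed by transcript length. In microglia-gated cells the median log2 ratio was 0.27 for the shortest 20th of the genes and -0.28 for the longest 20th, and in astrocyte-gated cells it was 0.32 and -0.45. Il6st, Il6ra and Lifr have the longest transcripts of the 10, at 8678, 8639 and 9655 bases, and Socs3 the shortest, at 2552 bases. The median ratio of genes of like length is therefore given beside ratios that lie near it, and the part of length in the ratios was not tested otherwise.

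The receptor chains come first. Il6st (ENSMUSG00000021756, chr13:112464070-112510086, plus strand) encodes gp130, Il6ra (ENSMUSG00000027947, chr3:89864059-89913196, minus strand) the chain that binds interleukin 6, Lifr (ENSMUSG00000054263, chr15:7090614-7197489, plus strand) the receptor of leukemia inhibitory factor, and Osmr (ENSMUSG00000022146, chr15:6813577-6874969, minus strand) that of oncostatin M. Positions are those of GENCODE M21 on mm10.

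Il6st was present in every class compared. In fibroblast or meningeal-gated cells it stood at 157 CPM (136 to 179) in the KO library and 164 CPM (138 to 194) in the WT library. Microglia-gated cells held 113 CPM (95.9 to 131) in the KO library and 162 CPM (142 to 184) in the WT library, a log2 ratio of -0.52 (-0.82 to -0.23). Their intervals do not overlap, and genes of like length had a median of -0.28. Endothelial-gated cells of the KO library held 112 CPM, against 147 CPM in the WT library, with a log2 ratio of -0.39 (-0.75 to -0.04). Thinned to equal depth the sign in endothelial-gated cells turned, to 0.14. In astrocyte-gated cells the level was 32.6 CPM in the KO library and 44.4 CPM in the WT library, a log2 ratio of -0.44 (-0.56 to -0.32) where genes of like length had -0.45. Within the clusters that hold these cells it was -0.58 in cluster 1 and -0.38 in cluster 5, with intervals below 0, and -0.06 in cluster 0, 0.14 in cluster 4, -0.08 in cluster 6, 0.64 in cluster 2 and 0.04 in cluster 13, with intervals that include 0. T cell-gated cells had 35 Il6st UMIs in the KO library and 21 in the WT library, a log2 ratio of 0.66 (-0.16 to 1.52). Neuroblast-gated cells were at the low end, with 10.4 CPM in the KO library and 9.83 CPM in the WT library.

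Il6ra was highest in microglia-gated cells of both libraries and hardly differed there, with 323 CPM (294 to 354) in the KO library and 328 CPM (299 to 358) in the WT library. Monocyte-gated cells followed at 160 CPM in the KO library and 224 CPM in the WT library, in classes of 123 KO cells and 45 WT cells that were too small to compare. In endothelial-gated cells the level was 97.8 CPM (79.4 to 119) in the KO library, from 98 UMIs in 66 cells, and 55.4 CPM (42.5 to 71.0) in the WT library, from 62 UMIs in 36 cells. The log2 ratio was 0.82 (0.35 to 1.30), and 0.36 when cells were thinned to equal depth. T cell-gated cells held 79.6 CPM (58.9 to 105) in the KO library and 111 CPM (85.8 to 142) in the WT library, with overlapping intervals. In astrocyte-gated and oligodendrocyte-gated cells Il6ra was near the floor, at most 0.813 CPM in the KO library and 1.11 CPM in the WT library.

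Lifr was found in microglia-gated, oligodendrocyte-gated, astrocyte-gated and endothelial-gated cells. Its level in microglia-gated cells was 114 CPM (97.2 to 133) in the KO library and 97.5 CPM (82.3 to 115) in the WT library, and the intervals overlap. In endothelial-gated cells it was 52.9 CPM (39.6 to 69.2) in the KO library, from 53 UMIs in 39 cells, and 129 CPM (109 to 152) in the WT library, from 144 UMIs in 57 cells. The log2 ratio of -1.28 (-1.77 to -0.82) was the lowest of any member measured. It was -0.57 when each cell was thinned to 2000 UMIs, which left 175 KO cells and 124 WT cells. The shares of thinned endothelial-gated cells with a Lifr UMI were 9.14% (5.32 to 14.4%) in the KO library and 10.48% (5.70 to 17.3%) in the WT library, against 14.9% and 35.6% of unthinned cells in the KO and WT libraries, where the median cell had 2749 and 4139.5 UMIs. Fibroblast or meningeal-gated cells had 42 Lifr UMIs in the KO library and 14 in the WT library, a log2 ratio of 0.89 (-0.01 to 1.88). In T cell-gated cells, 0 of 92 KO cells and 4 of 64 WT cells had a Lifr UMI.

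In astrocyte-gated cells Lifr stood at 67.9 CPM (65.2 to 70.7) in the KO library and 96.7 CPM (92.8 to 101) in the WT library, a log2 ratio of -0.51 (-0.59 to -0.43) that genes of like length nearly matched at -0.45. The astrocyte-gated cells of the libraries lay largely in different clusters. Clusters 0 and 1 held 34.2% and 27.4% of those of the KO library, and clusters 5 and 6 held 23.8% and 23.4% of those of the WT library. Within clusters 0, 4, 5 and 6 the log2 ratio of Lifr was -0.56, -0.59, -0.31 and -0.23, with every interval below 0, and in cluster 1 it was -0.14 (-0.33 to 0.06). In cluster 2, with 25 UMIs in the KO library and 22 in the WT library, Lifr stood at 39.8 CPM in both, and in cluster 13, with 15 and 3 UMIs, the ratio was 0.78 (-1.04 to 3.21). Oligodendrocyte-gated cells had 76.5 CPM (71.2 to 82.2) in the KO library and 90.5 CPM (84.4 to 96.9) in the WT library, where the ratio of -0.24 again lay near that of genes of like length, -0.31.

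Osmr was found mainly in vessel cells. Endothelial-gated cells held 161 CPM (137 to 187) in the KO library and 101 CPM (83.2 to 121) in the WT library, a log2 ratio of 0.67 (0.31 to 1.03). No endothelial-gated cell carried more than 8 Osmr UMIs, and the ratio was 0.70 without the cell of each library that held the most. Pericyte or smooth muscle-gated cells held 120 CPM (75.3 to 182) in the KO library, from 60 cells, and 143 CPM (87.2 to 221) in the WT library, from 32 cells. Astrocyte-gated cells held 1.94 CPM in the KO library and 3.10 CPM in the WT library, and their log2 ratio of -0.67 turned to 0.23 after thinning. Within clusters it was -1.42 (-2.32 to -0.45) in cluster 0 and -1.78 (-3.49 to -0.43) in cluster 5. Intervals included 0 in cluster 1 (-0.04), cluster 2 (-1.19), cluster 4 (1.98) and cluster 6 (0.20). Cluster 13 had 1 Osmr UMI in the KO library and 0 in the WT library. In microglia-gated cells no Osmr UMI was counted in either library, where 3 UMIs would make 2.10 CPM in the KO library and 2.02 CPM in the WT library.

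**Figure D2:**
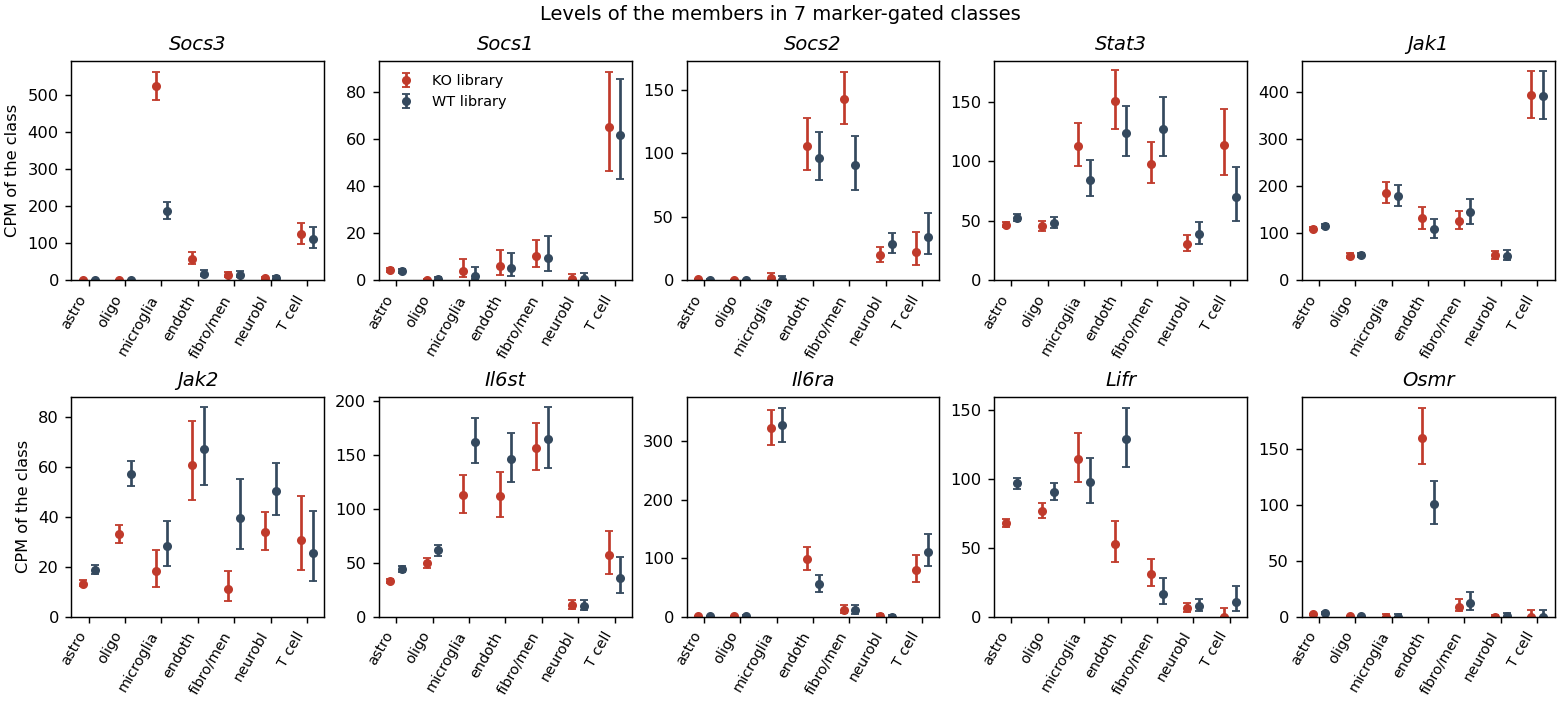
Level of each of the 10 genes in 7 marker-gated classes, as CPM of the class on linear axes that differ between genes, with the KO library left of the WT library. Bars are exact 95% intervals for counting error; Osmr stands out in endothelial-gated cells, at 161 CPM in the KO library and 101 CPM in the WT library.

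The kinases bind the receptor tails. Jak1 (ENSMUSG00000028530, chr4:101152367-101265282, minus strand) is the main kinase of gp130 and also serves interferon receptors, and Jak2 (ENSMUSG00000024789, chr19:29251828-29313080, plus strand) also serves growth hormone and erythropoietin receptors. Jak1 was highest in lymphocytes. NK cell-gated cells held 718 CPM in the KO library and 866 CPM in the WT library, and T cell-gated cells 393 CPM (345 to 446) in the KO library and 391.6 CPM (343 to 446) in the WT library. In the 10 classes compared, Jak1 was measured in all and its log2 ratio ran from -0.23 in erythroid-gated cells to 0.27 in endothelial-gated cells, and in astrocyte-gated cells it was -0.07. The erythroid-gated cells of the libraries were of unlike depth, as given above. In microglia-gated cells its level was 185 CPM in the KO library and 179 CPM in the WT library.

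Jak2 was lower in the KO library in all 7 classes where it was measured, although the sign turned in endothelial-gated cells, to 0.09, when cells were thinned to equal depth. Genes of like length also had a median below 0 in all 7. Their median was -0.16 in endothelial-gated cells, where Jak2 was at -0.14, and -0.29 in cycling progenitor-gated cells, where Jak2 was at -0.40. In oligodendrocyte-gated cells Jak2 was 32.9 CPM (29.4 to 36.7) in the KO library, from 324 UMIs, and 57.2 CPM (52.3 to 62.3) in the WT library, from 516 UMIs. The intervals are far apart, and the log2 ratio was -0.80 (-1.001 to -0.59), against -0.18 for genes of like length. It was -0.74 (-0.97 to -0.50) in cluster 3, which held 71.4% of these KO cells and 70.5% of these WT cells, and -1.19 (-1.65 to -0.73) in cluster 12. Astrocyte-gated cells had 13.2 CPM (12.0 to 14.5) in the KO library and 18.7 CPM (17.0 to 20.5) in the WT library. That log2 ratio was -0.50 (-0.69 to -0.31), against -0.26 for genes of like length. Within cluster 0 it was -0.81, with an interval below 0. It was -0.43 in cluster 1, -0.70 in cluster 2, 0.03 in cluster 4, 0.14 in cluster 5 and -0.45 in cluster 6, with intervals that include 0. Cluster 13 had 4 Jak2 UMIs in the KO library and 0 in the WT library. Microglia-gated cells had 18.2 CPM, from 26 UMIs, in the KO library and 28.2 CPM, from 42 UMIs, in the WT library, with a log2 ratio of -0.63 whose interval (-1.40 to 0.10) includes 0, and which was -0.06 after thinning. In endothelial-gated cells, at 60.9 CPM in the KO library and 67.0 CPM in the WT library, the intervals overlap widely. B cell-gated cells had 15 Jak2 UMIs in the KO library and 36 in the WT library, a log2 ratio of -0.82 (-1.80 to 0.08).

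Stat3 (ENSMUSG00000004040, chr11:100885098-100939540, minus strand) is the transcription factor that gp130 activates. Its transcript was found in all 15 classes shown, those with at least 15 cells in each library. Endothelial-gated cells held 151 CPM (128 to 177) in the KO library and 124 CPM (104 to 147) in the WT library, and the intervals overlap. In microglia-gated cells it stood at 113 CPM (96.6 to 132) in the KO library, from 162 UMIs, and 84.7 CPM (70.6 to 101) in the WT library, from 126 UMIs. Those intervals overlap slightly, and the interval of their log2 ratio of 0.42 (0.07 to 0.77) excludes 0. Stat3 was also higher in T cell-gated cells, at 114 CPM in the KO library and 70.1 CPM in the WT library, but the log2 ratio of 0.70 came to 0.04 when cells were thinned to equal depth. In B cell-gated cells it was 102 CPM in the KO library and 63.4 CPM in the WT library, a log2 ratio of 0.68 (0.07 to 1.30). Astrocyte-gated cells went the other way, with 46.8 CPM (44.6 to 49.1) in the KO library and 52.5 CPM (49.6 to 55.5) in the WT library. That log2 ratio of -0.17 (-0.27 to -0.06) was less negative than the median of genes of like length, -0.33. Within clusters it was -0.36 (-0.59 to -0.13) in cluster 0 and -0.48 (-0.92 to -0.03) in cluster 4. Intervals included 0 in cluster 1 (-0.03), cluster 2 (0.28), cluster 5 (-0.17), cluster 6 (-0.17) and cluster 13 (1.78). A transcript level says nothing of the phosphorylation of Stat3, which was not measured.

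The inhibitors differ in where they were found. Socs1 (ENSMUSG00000038037, chr16:10782240-10785536, minus strand), which mainly restrains interferon signalling, was highest in NK cell-gated and T cell-gated cells. T cell-gated cells held 65.0 CPM (46.4 to 88.5) in the KO library and 61.6 CPM (43.1 to 85.2) in the WT library, which differed by less than counting error. Microglia-gated cells had 6 Socs1 UMIs in the KO library and 3 in the WT library, and astrocyte-gated cells 4.40 CPM in the KO library and 3.88 CPM in the WT library.

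Socs2 (ENSMUSG00000020027, chr10:95385362-95417180, minus strand), best known as a brake on growth hormone signalling, was highest in fibroblast or meningeal-gated and endothelial-gated cells. The fibroblast or meningeal-gated cells held 143 CPM (123 to 164) in the KO library, from 69 of 124 cells, and 90.5 CPM (71.3 to 113) in the WT library, from 27 of 52 cells. These intervals do not overlap, and the log2 ratio was 0.66 (0.27 to 1.06). In endothelial-gated cells Socs2 was 106 CPM (86.6 to 128) in the KO library and 96.5 CPM (79.2 to 117) in the WT library. NK cell-gated cells held 77.1 CPM in the KO library and 72.2 CPM in the WT library, and neuroblast-gated cells 20.04 CPM in the KO library and 28.4 CPM in the WT library, a log2 ratio of -0.50 (-1.09 to 0.09). In astrocyte-gated cells the 40 UMIs of the KO library included 26 in 1 cell, against 12 UMIs in the WT library, and the log2 ratio of 1.18 turned to -0.069 without the cell of each library that held the most.

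Socs3 (ENSMUSG00000053113, chr11:117966079-117970047, minus strand), the feedback inhibitor of gp130, ranged widely between classes. In the KO library the order was microglia-gated cells at 525 CPM (488 to 564), neutrophil-gated at 277 (242 to 316), monocyte-gated at 170 (149 to 195), T cell-gated at 125 (98.7 to 156) and endothelial-gated at 58.9 CPM (44.8 to 75.9). Only the monocyte-gated and T cell-gated levels overlap among these neighbours. In the WT library the order began with neutrophil-gated cells at 237 CPM (191 to 291) and microglia-gated cells at 188 CPM (166 to 211), which overlap, followed by T cell-gated cells at 113 (87.3 to 144) and monocyte-gated cells at 101 CPM (76.2 to 132), which overlap as well. Endothelial-gated cells of the WT library held 17.9 CPM (10.9 to 27.6), no more than its ependymal-gated cells at 18.3 CPM.

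Below these stood classes with fewer UMIs. B cell-gated cells held 15.98 CPM in the KO library and 8.84 CPM in the WT library, fibroblast or meningeal-gated cells 14.7 CPM in the KO library and 15.5 CPM in the WT library, and cycling progenitor-gated cells 12.9 CPM in the KO library and 9.81 CPM in the WT library. Neuroblast-gated cells had 6.41 CPM (3.67 to 10.4) in the KO library and 7.10 CPM (3.78 to 12.1) in the WT library. The intervals of these 4 classes overlap within each library, and those of neuroblast-gated and astrocyte-gated cells lie apart in both. Astrocyte-gated cells held 2.03 CPM (1.59 to 2.56) in the KO library and 1.36 CPM (0.939 to 1.92) in the WT library, and oligodendrocyte-gated cells 0.813 CPM and 0.886 CPM from 8 UMIs each. Erythroid-gated cells had 0 UMIs in the KO library, where 3 would make 2.98 CPM, and 7 in the WT library. The neutrophil-gated and monocyte-gated classes had 45 cells each in the WT library and were not compared.

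**Figure D3:**
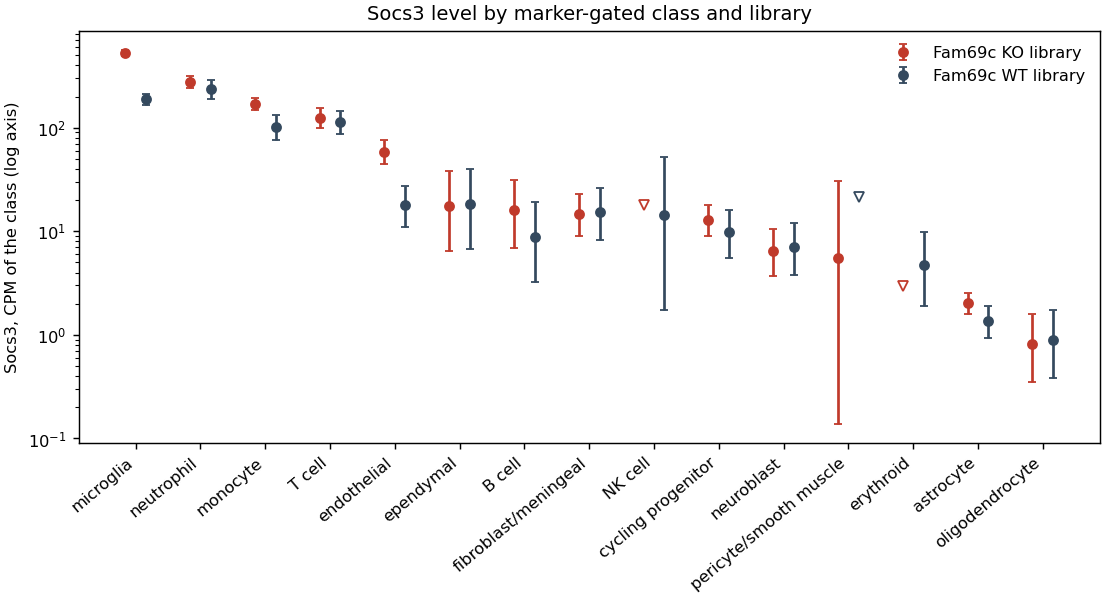
Socs3 level in 15 marker-gated classes, as CPM of the class on a log axis, with the KO library left of the WT library in each class. Bars are exact 95% intervals for counting error and open triangles mark the level of 3 UMIs where none was counted; the intervals of the KO and WT libraries lie apart in microglia-gated, monocyte-gated and endothelial-gated cells, with the KO library the higher.

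In microglia-gated cells Socs3 had 750 UMIs over 315 KO cells and 279 UMIs over 255 WT cells. The log2 ratio was 1.48 (1.28 to 1.69), against 0.08 for genes of like length. Of these KO cells 65.7%, and of these WT cells 65.9%, lay in cluster 8, which the same markers name microglia. Its level was 559 CPM in the KO library and 197 CPM in the WT library, a log2 ratio of 1.505 (1.30 to 1.71). The other cells lay mostly in clusters 16 and 22, which the markers left unnamed. Cluster 16 had 290 CPM in the KO library and 133 CPM in the WT library, a log2 ratio of 1.12 (0.15 to 2.15), and cluster 22 had 7 UMIs in the KO library and 4 in the WT library. The level in the KO library was thus the higher in all 3, though cluster 22 is too thinly counted for an order.

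Both the share of microglia-gated cells with Socs3 and the number of its UMIs per cell were higher in the KO library at equal depth. At full depth Socs3 was seen in 47.9% (42.3 to 53.6%) of microglia-gated cells of the KO library and 38.0% (32.1 to 44.3%) of those of the WT library, where the median cell had 5011 UMIs in the KO library and 6448 in the WT library. Oligodendrocyte-gated cells, which should largely lack Socs3, showed it in 0.874% of KO cells and 1.20% of WT cells at medians of 11308 and 13669.5 UMIs. Thinned to 2000 UMIs a cell, which left 219 KO and 193 WT microglia-gated cells, the shares were 42.5% (35.8 to 49.3%) in the KO library and 21.2% (15.7 to 27.7%) in the WT library. Thinned oligodendrocyte-gated cells gave 0.264% in the KO library and 0.521% in the WT library.

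Thinned microglia-gated cells with exactly 1 Socs3 UMI made up 19.6% in the KO library and 11.9% in the WT library, those with 2 made up 8.68% and 6.74%, and those with 3 or more made up 14.2% in the KO library and 2.59% in the WT library. The highest count in any 1 cell before thinning was 35 in the KO library and 24 in the WT library, and the 10% of cells with the most Socs3 held 64.8% of its UMIs in the KO library and 62.0% in the WT library. At full depth a minority of cells thus carried most of the transcript in each library, to a like degree. Deeper cells weigh more in these shares, which were not recomputed at equal depth. No single cell made the gap: without the top cell of each library the log2 ratio was 1.54.

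**Figure D4:**
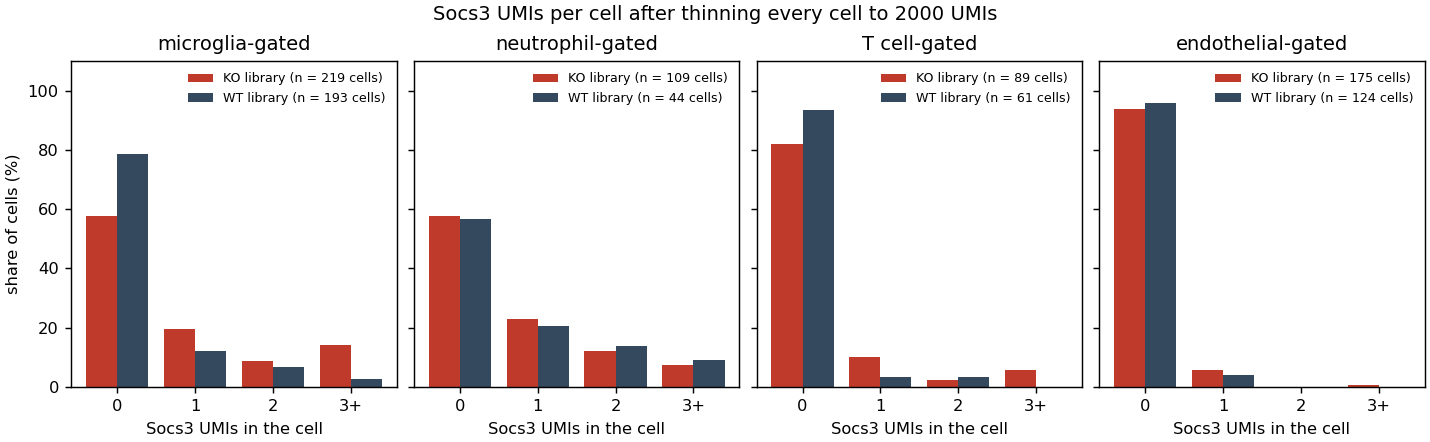
Share of cells with 0, 1, 2 or at least 3 Socs3 UMIs after every cell was thinned to 2000 UMIs, in 4 marker-gated classes, with the KO library left of the WT library. Bars are shares in percent of the thinned cells, whose number is in each legend; microglia-gated cells with at least 3 made up 14.2% in the KO library and 2.59% in the WT library.

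Elsewhere single cells weighed on the Socs3 values. In endothelial-gated cells the KO library held 59 UMIs in 31 cells, 21 of them in 1 cell, and the WT library 20 UMIs in 16 cells. The log2 ratio of 1.72 (0.97 to 2.53) was 1.26 without the top cell of each library, 0.88 after thinning and 0.40 when each cell was weighed the same. In T cell-gated cells the KO library held 77 UMIs with at most 5 in a cell, and the WT library 66 UMIs, 36 of them in 1 cell. There the log2 ratio of 0.15 (-0.35 to 0.64) became 1.13 without the top cell of each library. In astrocyte-gated cells, with 72 UMIs in the KO library and 33 in the WT library, the log2 ratio of 0.57 (-0.04 to 1.21) has an interval that includes 0. In cycling progenitor-gated cells it was 0.39 (-0.51 to 1.37).

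Other genes of the pathway were described from lists of ligands, further receptors, further kinases and Stat proteins, further brakes and Stat3 target genes, which were drawn up with results of these data known. Of each list, the most abundant members and those with the largest ratios are named, and where 5 or fewer passed the fold they are all named, a choice made after their values were seen. Of 11 gp130-family ligands, 4 were measured in microglia-gated cells, where 6.05% of all measured genes were past the fold upward and 6.93% downward. Ebi3, a subunit of interleukins 27 and 35, was past the fold upward, with 26.6 CPM in the KO library and 15.5 CPM in the WT library (log2 ratio 0.78, with an interval that just includes 0). Il6 itself was past it downward, with 14.7 CPM from 21 UMIs in the KO library and 24.2 CPM from 36 UMIs in the WT library (-0.72, -1.57 to 0.09). The ligands Osm, with 27.3 CPM in the KO library and 25.6 CPM in the WT library, and Clcf1, with 30.8 CPM in the KO library and 37.0 CPM in the WT library, differed by less than counting error. No ligand was measured in endothelial-gated cells.

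In microglia-gated cells 6.05% of all measured genes were past the fold upward and 6.93% downward. Of 13 partner and other receptors there, 8 were measured and none was past the fold. The most abundant, the interferon gamma receptor chain Ifngr1, had 779 CPM in the KO library and 814 CPM in the WT library. Of 8 further kinases and Stat genes, 5 were measured there and 1 was past the fold downward, the kinase Tyk2, with 26.6 CPM in the KO library and 41.0 CPM in the WT library. Of 13 further brakes, 12 were measured and 1 was past it upward, the phosphatase Ptpn2, with 35.0 CPM in the KO library and 22.2 CPM in the WT library. The phosphatase Ptpn1, also known to act on Jak2, was just short of it, with 378 CPM from 540 UMIs in the KO library and 254 CPM from 377 UMIs in the WT library, a log2 ratio of 0.58 (0.38 to 0.77). In endothelial-gated cells 9 of the 13 receptors were measured. There 1 was past the fold in each direction, against 5.94% of all measured genes upward and 7.13% downward. Upward it was the interleukin 4 receptor chain Il4ra, with 41.9 CPM from 34 cells in the KO library and 12.5 CPM from 13 cells in the WT library, and downward Ifngr2, with 18.96 CPM in the KO library and 31.3 CPM in the WT library. Both rest on few UMIs, not far above the 50 needed to be measured.

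Of 18 known Stat3 target genes, 11 were measured in microglia-gated cells. Past the fold were 2 upward, against 6.05% of all measured genes, and 0 downward, against 6.93%. The median log2 ratio was 0.06, against -0.01 over all 7289 measured genes. The 2 past the fold were both higher in the KO library. The transcription factor Cebpb, which drives inflammatory genes, had 609 CPM in the KO library and 373 CPM in the WT library, a log2 ratio of 0.71 (0.55 to 0.87). The survival kinase Pim1 had 44.8 CPM from 64 UMIs in the KO library and 19.5 CPM from 29 UMIs in the WT library, a log2 ratio of 1.20 (0.54 to 1.89). Cebpd, a relative of Cebpb, had 316 CPM in the KO library and 242 CPM in the WT library (0.39, 0.18 to 0.59). The most abundant target, Junb, had 2798 CPM in the KO library and 2730 CPM in the WT library (0.04, -0.03 to 0.10), and the survival gene Mcl1 had 533 CPM in the KO library and 474 CPM in the WT library. Of the 11 ratios, 8 were above 0 and 3 below.

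Immediate early genes, which tissue dissociation is known to raise, are given beside Socs3 because Socs3 is itself quickly induced. In microglia-gated cells the 12 summed to 17625 CPM in the KO library and 21469 CPM in the WT library. None was past the fold upward, against 6.05% of all measured genes, and 2 were past it downward, against 6.93%. These were Fosb, with 125 CPM in the KO library and 231 CPM in the WT library, and Atf3, with 695 CPM in the KO library and 1115 CPM in the WT library. Jun, the most abundant, had 4760 CPM in the KO library and 6401 CPM in the WT library. Of the 12 ratios 2 were above 0 and 10 below, while that of Socs3 was above, and the part of these genes in the Socs3 difference was not tested. Hemoglobin transcripts, a measure of free RNA and blood, summed to 2471 CPM in the KO library and 3982 CPM in the WT library in these cells, and their part in the results was not tested.

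Within each library, microglia-gated cells with a Socs3 UMI also held more early gene transcripts. After thinning to 2000 UMIs, 93 KO cells had a Socs3 UMI and 126 had none, and in the WT library the numbers were 41 and 152. The 12 early genes summed to 22372 CPM in cells with Socs3 and 12992 CPM in those without in the KO library, and to 28975 CPM and 17299 CPM in the WT library. Of those with at least 20 UMIs, 11 of 12 in the KO library and 11 of 11 in the WT library were higher in the cells with Socs3, with intervals above 0. Over all genes with as many UMIs, 3.51% in the KO library and 3.13% in the WT library were higher in that way, and 3.35% and 2.88% were lower. In neutrophil-gated cells 2 of 8 early genes were higher in the KO library (8.04% of all genes) and 4 of 10 in the WT library (14.6%). In monocyte-gated cells of the KO library 3 of 10 were higher (4.07% of all genes) and 1 lower (3.31%), and in those of the WT library 0 of 9 were higher (5.68%) and 3 lower (4.15%).

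The same split was made for the other members and for the target genes in microglia-gated cells, where the genes named were chosen after their values were seen. Of the 5 members with at least 20 UMIs, 0 had an interval that excluded 0 in either library. Il6ra had 307 CPM in cells with Socs3 and 369 CPM in those without in the KO library, and 391 CPM and 329 CPM in the WT library. Stat3 had 135 CPM and 83.3 CPM in the KO library, from 25 and 21 UMIs, and 73.2 CPM and 69.1 CPM in the WT library, from 6 and 21 UMIs. Of the Stat3 target genes, 4 of 8 in the KO library and 3 of 7 in the WT library were higher in cells with Socs3, with intervals above 0, against the 3.51% and 3.13% of all genes. These were Junb, Cebpb, Cebpd and Mcl1 in the KO library, and Junb, Cebpd and Mcl1 in the WT library. Among them Junb, the most abundant, had 3671 CPM and 1810 CPM in the KO library, and 3967 CPM and 2109 CPM in the WT library. The same cells with Socs3 held more early gene transcripts, as given above. Whether the target genes differed apart from the early genes was not tested.

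**Figure D5:**
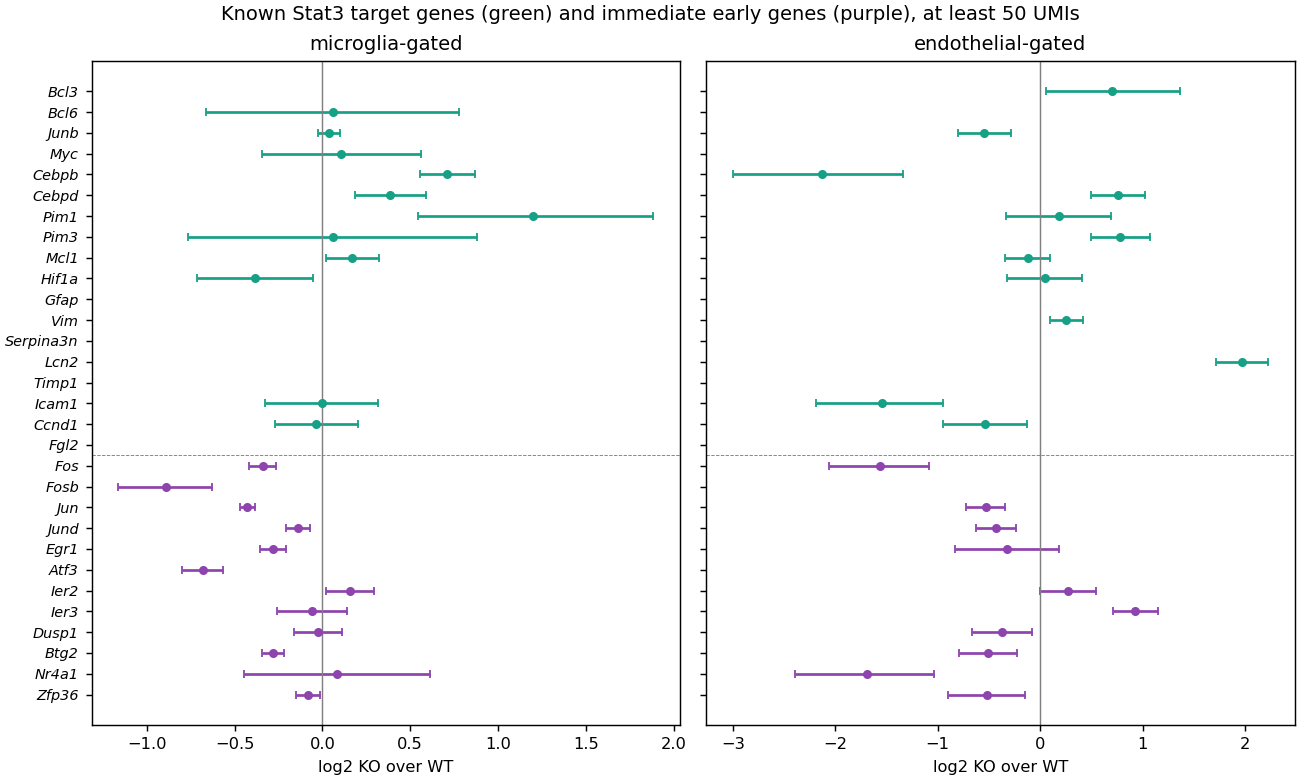
Log2 ratio of the KO over the WT library for known Stat3 target genes (green, above the dashed line) and immediate early genes (purple, below it) in microglia-gated cells (left) and endothelial-gated cells (right), for genes with at least 50 UMIs. Points are ratios and bars exact 95% intervals for counting error; in microglia-gated cells Pim1 lies at 1.20 and Fosb at -0.89.

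In endothelial-gated cells 12 of the 18 target genes were measured. Past the fold were 4 upward, against 5.94% of all measured genes, and 2 downward, against 7.13%. The median log2 ratio was 0.11, against -0.01 over all 6381 measured genes. Cebpd had 296 CPM from 106 cells in the KO library and 175 CPM from 54 cells in the WT library, a log2 ratio of 0.76 (0.49 to 1.03), and Pim3 had 258 CPM from 130 cells in the KO library and 150 CPM from 69 cells in the WT library, a log2 ratio of 0.78 (0.50 to 1.07). Bcl3, a partner of NF-kB proteins, had 50.9 CPM in the KO library and 31.3 CPM in the WT library (0.70, 0.05 to 1.37). These 3 were spread over many cells.

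Single cells weighed on several endothelial values. Lcn2, an iron-binding protein of the acute phase, had 587 CPM in the KO library, 446 of its 588 UMIs in 1 cell, and 150 CPM in the WT library, 147 of its 168 UMIs in 1 cell, and its log2 ratio of 1.97 was 2.90 without those cells. Cebpb, past the fold downward, had 15.96 CPM in the KO library and 69.7 CPM in the WT library, and its log2 ratio of -2.13 was -0.40 without the cell of each library that held the most. Icam1, whose promoter is printed above, had 29.9 CPM in the KO library and 87.6 CPM in the WT library, and its log2 ratio of -1.55 was -0.55 without those cells. Of 12 early genes in endothelial-gated cells 10 were measured. Past the fold were 1 upward, against 5.94% of all measured genes, and 2 downward, against 7.13%. Upward it was Ier3, at 480 CPM in the KO library and 252 CPM in the WT library. Fos, at 46.9 CPM in the KO library and 139 CPM in the WT library, and Nr4a1, at 24.9 CPM in the KO library and 80.4 CPM in the WT library, were past it downward. Hemoglobin transcripts in these cells summed to 3503 CPM in the KO library and 15467 CPM in the WT library, and their part in the results was not tested.

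Astrocyte-gated cells had 15 of the 18 target genes measured, with 3 past the fold upward, against 2.97% of all genes, 0 downward, against 8.96%, and a median log2 ratio of 0.04, against -0.10 over all 13372 measured genes. Cebpd had 38.4 CPM in the KO library and 21.2 CPM in the WT library, a log2 ratio of 0.85 (0.71 to 1.00), and Pim3 had 60.2 CPM in the KO library and 34.5 CPM in the WT library, a log2 ratio of 0.80 (0.69 to 0.92). Vim, an intermediate filament gene known to rise in reactive astrocytes, had 73.6 CPM in the KO library and 47.4 CPM in the WT library, a log2 ratio of 0.64 (0.53 to 0.74). Only the 3 target genes past the fold are named for astrocyte-gated cells. These sums pool clusters that the libraries filled unevenly, as given above. The target genes were not compared within clusters, so a difference per cell and a difference in the mix of cells were not told apart. Of the 15 ratios, 10 were above 0 and 5 below. All 18 target genes summed to 493 CPM in the KO library and 440 CPM in the WT library in astrocyte-gated cells. Socs3 itself was near the floor in these cells, as given above. Oligodendrocyte-gated cells had 12 measured, with 1 past the fold upward, against 2.84% of all genes, 3 downward, against 5.41%, and a median log2 ratio of -0.25, against -0.06. Upward it was the cyclin Ccnd1, with 4.17 CPM in the KO library and 1.44 CPM in the WT library. Downward were Cebpb, with 2.74 CPM in the KO library and 9.30 CPM in the WT library, the protease inhibitor Serpina3n, with 4.47 CPM in the KO library and 7.98 CPM in the WT library, and Junb, with 14.03 CPM in the KO library and 24.4 CPM in the WT library.

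Across the 20 class sums, 10 classes in each library, the genes whose level followed that of Socs3 most closely among 8468 genes were Il6ra (Pearson r = 0.94 on log2 of CPM plus 10), Spata13 (0.91), Slc29a1 (0.91), Klk8 (0.91) and Ifitm10 (0.91). The sums of a class share its library, depth and cells, so this is a description of where the transcripts were found. Il6ra, the closest, is the receptor chain whose level in microglia-gated cells hardly differed between the KO and WT libraries.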

How the data were processed

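The values used are raw UMI counts of each gene in each barcode, as deposited, for 1 KO and 1 WT library. They were made with Cell Ranger 4.0.0, per the submitters' processing notes, which list mm10 as the build and Seurat 3.0 and R 4.0.3 as further tools. The annotation release is not stated. The genes and lists were chosen with earlier results of these data known.

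Barcodes under 500 genes or above 20% mitochondrial UMIs were dropped, which removed 1702 KO barcodes (18.5%) and 1998 WT barcodes (27.9%). Scrublet (scanpy 1.11.5) called 4 KO and 0 WT doublets by its own threshold, which was judged a failure. The highest scores were removed instead at 0.8% per 1000 barcodes, that is 448 KO and 212 WT cells.

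Each cell was scored on 19 marker sets. Each marker's log level, after scaling to 10000 UMIs a cell, was divided by the mean of its 100 highest cells, capped, and averaged over the set. A class needed 3 detected markers, a score of 0.25 and a lead of 0.1 over the next. All 3 values were chosen with the data in view. Joint clustering (Leiden, leidenalg 0.10.2, 28 clusters) served as an alternative.

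UMIs were summed per class and library and divided by the class total. Levels have exact Poisson, shares exact Clopper-Pearson and ratios exact conditional binomial intervals (scipy 1.17.1), for counting error alone. Ratios have no pseudocount and were checked on simulated counts. With 1 library a group no test was made. All 10 genes are described, and of each list up to 4 abundant members and 3 with the largest ratios, besides those of counts of 5 or fewer. Transcript lengths were those of the longest GENCODE M21 transcript, matched for 32235 of 32285 genes, in 20 bins. The alternatives changed the cell filter, doublets, gate, scaling, depth and weighting, and, added after the data were seen, left out the top cell or took off the median of genes of like length. Sequences are from RefSeq.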

Additional observations from a re-analysis of the deposited data

How the results depend on the processing

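The 53 log2 ratios of the 10 genes were recomputed under 11 settings each. Of the 583 values, 538 stayed within the counting interval of the reported ratio and 41 moved beyond it. The other 4 values had the opposite sign to a reported ratio past 1.5-fold. Socs3 in microglia-gated cells kept its direction under all 11, between 1.40 and 1.64. The sign turned for Socs2 in astrocyte-gated cells (1.18 as reported), to -0.62 with classes from named clusters, -0.29 with each cell weighed the same and -0.069 without the top cell, and for Osmr there (-0.67), to 0.23 after thinning. Socs3 in astrocyte-gated cells (0.57, short of 1.5-fold) was 1.33 after thinning and -0.41 with each cell weighed the same. In endothelial-gated cells (1.72) it was 0.88 and 0.40 under the same settings. In T cell-gated cells (0.15) it was 1.18 with named clusters, 1.82 after thinning, 1.02 with each cell weighed the same and 1.13 without the top cell. Apart from the top cells named, the cause was not tested. The number of members past 1.5-fold in astrocyte-gated cells (2) was 1 with doublets kept, without the top cell and against genes of like length, 4 after thinning, and 0 with each cell weighed the same or at 200 UMIs. In microglia-gated cells (2) it was 1 with the stricter cell filter, doublets kept or 200 UMIs. At 200 UMIs it was 1 in endothelial-gated (4) and fibroblast or meningeal-gated cells (2) and 0 in T cell-gated cells (2). The share of all genes past the fold was not computed under these settings, so nothing about the members is read from these counts. TMM scaling subtracts a log2 shift of -0.14 in astrocyte-gated, -0.12 in neuroblast-gated and -0.14 in cycling progenitor-gated cells, which raises every ratio there. No paired analysis was possible because each genotype has 1 library.

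Socs1 in microglia-gated cells, with 6 UMIs in the KO library and 3 in the WT library, had too few for a ratio. The thinned values leave out cells under 2000 UMIs.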

Other observations

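Cells that no gate took had 48.3 CPM of Socs3 (39.7 to 58.3) in the KO library, from 289 cells, and 53.1 CPM (44.9 to 62.3) in the WT library, from 750 cells. Monocyte-gated cells, too few in the WT library to compare, had 220 Socs3 UMIs in 66 of 123 cells of the KO library and 55 in 17 of 45 cells of the WT library.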
